A study of Mus musculus with 2197 samples.

Results

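The 5 genes Rgs2, Rgs4, Rgs5, Rgs16 and Rgs17 were followed through every sort and embryonic day of a single-cell survey of the developing mouse pancreas. They were taken by symbol from the 40824 genes of the Smart-seq2 read count table, in which 16 other Rgs genes are also listed, and from 2 droplet libraries. Smart-seq2, a full-length method, gave 2195 cells in 29 groups, sorted by a fluorescent reporter. Pdx1-GFP+ cells, from a transgenic line, were taken at E9.5, E10.5 and E11.5, with Pdx1-GFPhigh cells at E10.5. Pdx1-Cre;Rosa-RFP+ cells, the descendants of Pdx1-expressing cells, were taken daily over E10.5 to E15.5. Ptf1a-CreER;Rosa-RFP+ and Ngn3-Cre;Rosa-RFP+ cells came from E11.5. The Ngn3-GFP knock-in strain gave Ngn3-GFP+ cells at E10.5, E12.5, E16.5 and E17.5, and it was split into Ngn3-GFPhigh and Ngn3-GFPlow cells on each day from E13.5 to E15.5. Gcg-GFP+ cells (E15.5 and E17.5), Ins1-RFP+ cells (E15.5) and Sox9-CreER;Rosa-RFP+ cells (E16.5 and E17.5) stood for the alpha, beta and duct lineages. Finally, Ins1-RFP+ cells were sorted from E13.0 dorsal pancreas explants after 2 days of culture, either untreated or with 10 µM U0126, an inhibitor of MEK1 and MEK2. A Cre line marks every later descendant of a cell that once expressed the driver gene, and a GFP signal can outlast the gene that drives it, so no sort is a single cell state. When Cre was induced in the CreER lines is not given in the sources used here. The droplet libraries hold unsorted E14.5 pancreas.

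Regulators of G protein signalling (RGS proteins) bind the active alpha subunit of a heterotrimeric G protein and speed up its hydrolysis of GTP, which ends the signal of a receptor. Rgs2, Rgs4, Rgs5 and Rgs16 encode small members of the R4 subfamily, of which Rgs2 acts preferentially on Gq, whereas Rgs17 belongs to the RZ subfamily and acts on Gi and Gz proteins. In the adult pancreas such receptors tune hormone release, since adrenergic and somatostatin receptors signal through Gi and muscarinic receptors through Gq. Rgs5 is widely used as a marker of pericytes.

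In the GENCODE vM21 annotation of mm10, 4 of the 5 genes lie on chromosome 1 and Rgs17 lies on chromosome 10, and all of them code for proteins. Rgs4 (ENSMUSG00000038530) occupies chr1:169741477-169747642 on the minus strand and Rgs5 chr1:169655501-169695813 on the plus strand. The pair are neighbours in the genome with 45.7 kb between them. Rgs16 lies at chr1:153740349-153745468 on the plus strand, and its exons overlap those of an antisense gene, Gm28513, which has no row in the count table. Since no source used here says that the counting used strand, reads of Rgs16 and of this antisense gene cannot be told apart. Rgs2 lies at chr1:143999338-144004161 and Rgs17 at chr10:5825663-5922400, both on the minus strand. The 250 bases before the RefSeq start (GRCm38.p6) are shown for Rgs4 and Rgs16, which differed between endocrine cell classes, and for Rgs5, the neighbour of Rgs4, in the direction of transcription, with capitals marking the CATCTG E-box. They span chr1:169747643-169747892 (minus strand), chr1:169655251-169655500 (plus strand) and chr1:153740103-153740352 (plus strand).
Rgs4: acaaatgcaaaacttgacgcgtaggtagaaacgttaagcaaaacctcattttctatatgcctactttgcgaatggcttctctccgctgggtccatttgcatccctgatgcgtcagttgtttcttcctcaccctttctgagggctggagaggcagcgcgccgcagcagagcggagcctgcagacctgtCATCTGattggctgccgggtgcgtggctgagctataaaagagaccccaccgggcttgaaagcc
Rgs5: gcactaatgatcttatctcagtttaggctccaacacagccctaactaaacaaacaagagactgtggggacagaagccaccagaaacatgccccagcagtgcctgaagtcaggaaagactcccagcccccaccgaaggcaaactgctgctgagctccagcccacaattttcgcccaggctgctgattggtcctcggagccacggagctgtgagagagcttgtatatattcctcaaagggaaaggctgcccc
Rgs16: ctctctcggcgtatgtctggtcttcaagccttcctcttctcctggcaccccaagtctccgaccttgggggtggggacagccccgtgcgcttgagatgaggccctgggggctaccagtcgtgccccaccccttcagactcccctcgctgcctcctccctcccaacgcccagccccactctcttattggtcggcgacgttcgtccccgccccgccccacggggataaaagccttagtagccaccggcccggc
Both strands of these windows were searched in all 5 genes for 3 motifs, namely the E-box CATCTG, the homeodomain site TAATTA and the cAMP response element TGACGTCA. The only match was an E-box in Rgs4, whose first base lies 63 bases before the start. Over 32851 mouse promoter windows of the same length, 14.44% held this E-box, 4.84% the homeodomain site and 1.546% the cAMP response element.

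Cells held 176524 to 2118160 counts (median 809389) over 4339 to 12149 genes. The number in each cell's title that precedes its cell number defines a set, and the counts of its cells were added up (82 sets, the smallest with 2838610 counts). Sets are the replicates in all tests below. The labels do not say whether sets are separate litters, so the spread behind each p-value is that among sets and could be technical. In such sums, fewer cells of a type and less RNA per cell cannot be told apart. The hormone genes followed the hormone reporters at E15.5: Gcg was at 54859 ± 3535 CPM (SD, n = 2 sets) in Gcg-GFP+ cells of E15.5 and 15.2 ± 4.26 in Ins1-RFP+ cells of that day, whereas Ins1 was at 82.4 ± 27.3 and 33913 ± 11495. Neurog3 itself was at 1063 ± 66.4 CPM (n = 3) in Ngn3-GFPhigh cells of E13.5 and 123 ± 158 (n = 3) in Ngn3-GFPlow cells, but at 3.90 ± 4.00 (n = 3) in Ngn3-GFP+ cells of E12.5. At E16.5 it was at 137 ± 100 (n = 4) in Ngn3-GFP+ cells and 275 ± 177 (n = 2) in Sox9-CreER cells. Of 2077 fresh cells, 181 carried at least 4 markers of another cell type at 100 CPM or more, and 151 of these carried leukocyte markers. The leukocyte-marker cells were concentrated in the Ngn3-GFPlow sorts (51, 31 and 14 cells on the 3 days) and in the early Ngn3-GFP+ sorts (13 cells at E10.5 and 38 at E12.5). The called differences of the 5 genes in these sorts are therefore given with and without the cells that carried markers of another type.

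Every gene was detected in more than 1 sort, but each had its own distribution. Rgs17 was the most even, with 5.34 CPM in its lowest set and 209 in its highest, and was never at 0 in any set. Rgs4 was highest in Gcg-GFP+ cells (206 and 150 CPM in the 2 sets of E15.5 and 193 in the single set of E17.5). At the other end, Ins1-RFP+ cells of E15.5 held 0.321 and 0.0808 CPM of Rgs4, and both Sox9-CreER sets of E17.5 held 0. Rgs16 peaked in Ngn3-GFPhigh cells of E13.5 and was at 0 in both Gcg-GFP+ sets of E15.5 and both Ngn3-GFPlow sets of E15.5. Per kilobase of gene model, the mean level of Rgs16 in Ngn3-GFPhigh cells of E13.5 was 31 CPM per kb, beside 21.3 for Rgs17 and 0.167 for Rgs2.

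**Figure D1:**
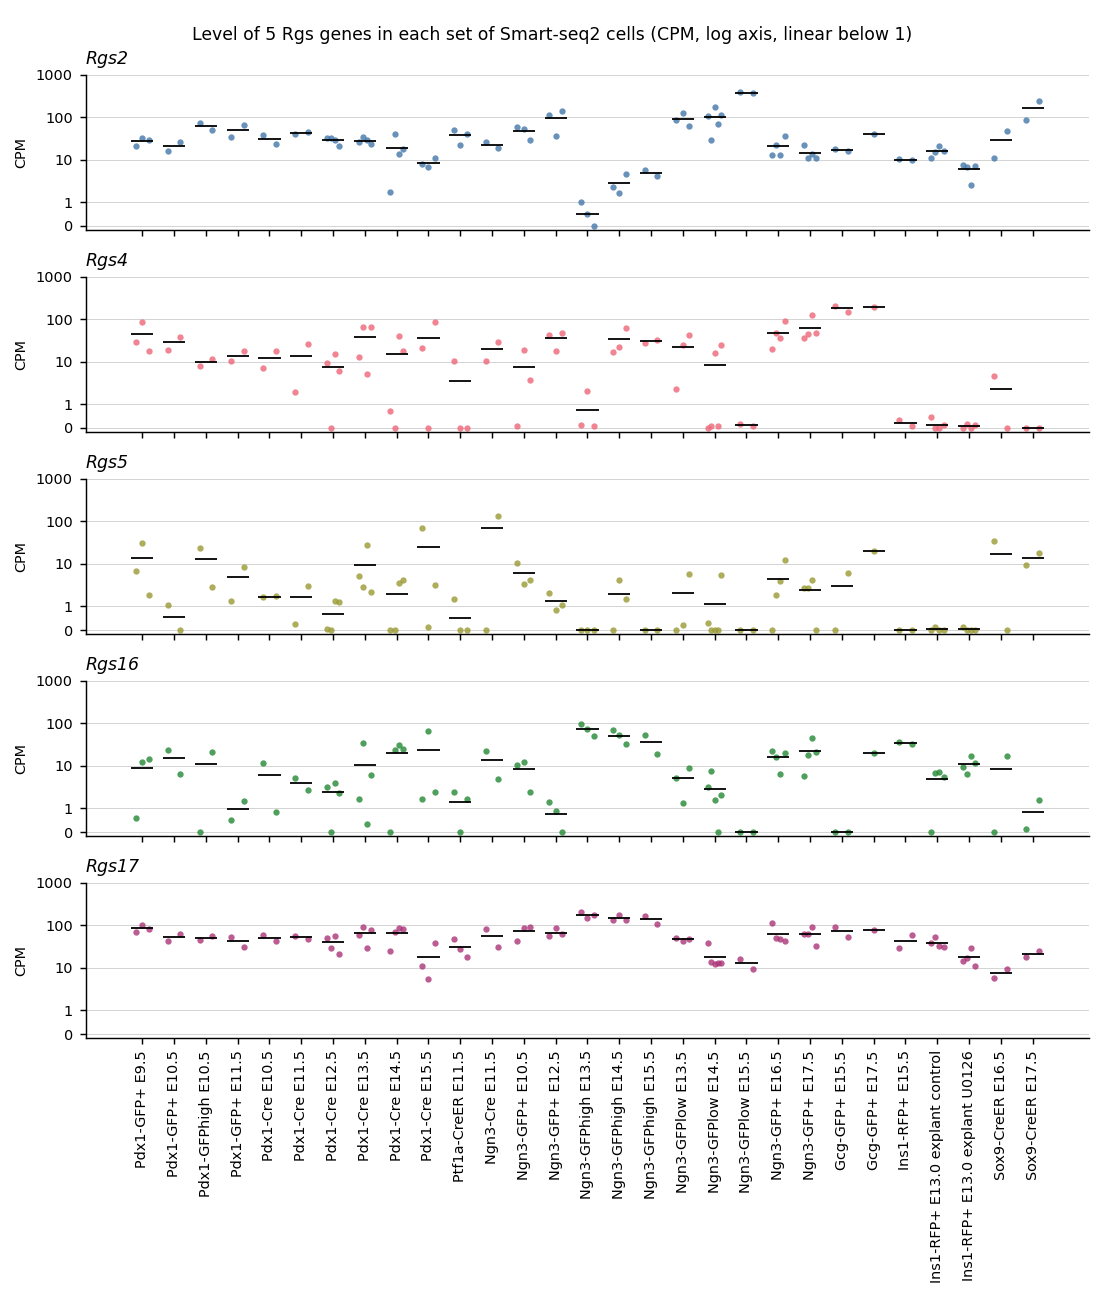
CPM of each Rgs gene (vertical axis, logarithmic above 1 and linear below) in the sets of 29 Smart-seq2 groups (horizontal axis). Points are sets and black bars are group means. Rgs2 was at most 5.87 CPM in the Ngn3-GFPhigh sets, where Rgs16 and Rgs17 were high, and Rgs4 reached its highest levels in the Gcg-GFP+ sets.

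To ask how the genes follow Neurog3 reporter strength, Ngn3-GFPhigh cells were compared with Ngn3-GFPlow cells of the same day. Rgs16 and Rgs17 were higher and Rgs2 lower in the strongly fluorescent cells. At E13.5, 2 of the 5 genes passed an adjusted p of 0.05 (edgeR's quasi-likelihood test with Benjamini-Hochberg adjustment over all genes), against 6.22% of the 18989 genes tested. At E14.5 and E15.5 it was 3 of 5 on each day (Rgs2, Rgs16 and Rgs17), against 15% and 8.98% of all genes.

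Rgs17 was at 209, 145 and 170 CPM in the 3 Ngn3-GFPhigh sets of E13.5 and at 50.8, 41.7 and 47.9 in the Ngn3-GFPlow sets. The groups did not overlap, and the log2 difference was 1.80 ± 0.37 (SE; adjusted p = 0.0123). At E14.5 the levels were 133, 171 and 130 CPM in 3 sets against 12.4 to 37.4 (median 13) in 5 sets of Ngn3-GFPlow cells. This gave a log2 difference of 2.87 ± 0.32 (adjusted p = 0.000146). At E15.5 the 2 Ngn3-GFPhigh sets held 165 and 108 CPM and the Ngn3-GFPlow sets 16.3 and 9.19 (3.31 ± 0.49 on the log2 scale, adjusted p = 0.00161). Rgs17 was thus higher in every Ngn3-GFPhigh set than in any Ngn3-GFPlow set of its day. Without the cells that carried markers of another type, the log2 difference at E13.5 was 1.14 and no longer passed (adjusted p = 0.21), and it was also lost without the first Ngn3-GFPhigh set (adjusted p = 0.0536). On the later days it held, at 2.53 and 2.93 without those cells.

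Rgs16 was at 94.3, 73.7 and 49.8 CPM in Ngn3-GFPhigh cells of E13.5 and at 5.03, 1.32 and 8.88 in Ngn3-GFPlow cells, without overlap. The log2 difference of 3.73 ± 1.07 narrowly missed the threshold (adjusted p = 0.053), although DESeq2 (adjusted p = 0.00129) and limma (adjusted p = 0.00342) called it. Without the cells of other types it was 3.20 (adjusted p = 0.165). At E14.5 it was at 68.1, 51.9 and 32.3 CPM against 0 to 7.41 (median 2.12) in 5 sets, a log2 difference of 3.99 ± 0.88 (adjusted p = 0.00829). At E15.5 the Ngn3-GFPhigh sets held 51.6 and 19.2 CPM, whereas neither Ngn3-GFPlow set had a single Rgs16 count. With 3 counts over that whole group taken as the floor, Rgs16 was at least 377-fold higher (adjusted p = 0.00705, or 0.0577 without the second Ngn3-GFPlow set). This floor covers counting error only, not the sampling of cells. Rgs16 calls of E14.5 and E15.5 also held without the cells of other types (adjusted p = 0.0125 and 0.00848).

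Rgs2 ran the other way. Its level was 1.03, 0.486 and 0 CPM in Ngn3-GFPhigh cells of E13.5 and 86.5, 125 and 60.7 in Ngn3-GFPlow cells (log2 difference -7.42 ± 0.91, adjusted p = 0.00138). At E15.5 it was 5.87 and 4.04 CPM against 387 and 367 (-6.37 ± 1.04, adjusted p = 0.003, or 0.0506 without the second Ngn3-GFPhigh set), and at E14.5 the log2 difference was -5.34 ± 0.79 (adjusted p = 0.000769). Most of this Rgs2 lay in cells with leukocyte markers, which held 89.7%, 88.9% and 93.6% of all Rgs2 counts of the Ngn3-GFPlow sorts of E13.5, E14.5 and E15.5. The summed level of the 8 leukocyte markers was 1200 to 9543 CPM in Ngn3-GFPlow sets of E13.5 and 5.63 to 16.3 in Ngn3-GFPhigh sets, with no marker at 0 in either. After removal of the cells with markers of another type, the log2 difference was -4.56, -2.27 and -2.85 on the 3 days, and Rgs2 passed on none of them (adjusted p = 0.173, 0.252 and 0.323). The remaining Ngn3-GFPlow cells held 14.2, 15.9 and 40.1 CPM of Rgs2.

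Rgs4 and Rgs5 were called on no day by edgeR in this comparison. Rgs4 was at 0.139, 2.09 and 0.0741 CPM in Ngn3-GFPhigh sets of E13.5, and at 28.2 and 32.1 in those of E15.5. Ngn3-GFPlow sets of E13.5 held 2.24, 24.2 and 42 CPM of Rgs4, and those of E15.5 held 0.178 and 0.0661. The order of the sorts was thus opposite on the 2 days, and DESeq2 called Rgs4 on both (adjusted p = 0.0274 and 0.00334). Without the cells of other types the log2 difference was -5.87 at E13.5 and 8.22 at E15.5 (edgeR's adjusted p = 0.273 and 0.185). Gcg ran the same way, at 4359 ± 3775 CPM in Ngn3-GFPhigh and 21829 ± 21263 in Ngn3-GFPlow cells of E13.5 (n = 3 each), and at 5753 ± 6909 and 4.95 ± 6.84 in those of E15.5 (n = 2 each). Its part in the Rgs4 levels was not tested. A direct test of how far the sort difference changed between these days passed none of the 5 genes (Rgs4 12.84 ± 3.89 on the log2 scale, adjusted p = 0.258, or 14.10 and 0.191 without the cells of other types) and 0.121% of all genes. DESeq2 called Rgs4 and Rgs16 in that test (adjusted p = 0.000502 and 0.00993). Between E15.5 and E13.5, edgeR called none of the 5 genes within Ngn3-GFPhigh cells (0.0948% of all genes, 2 of the 5 at an unadjusted p under 0.05), whereas DESeq2 called Rgs2 (log2 difference 3.25, adjusted p = 0.00317).

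The first wave of endocrine cells was sampled early, as Ngn3-GFP+ cells at E10.5 and at E12.5, and set against the late Ngn3-GFP+ sorts (E16.5, E17.5). Of the 5 genes only Rgs2 passed, against 19.7% of 19059 genes tested. It was at 59.9, 51.6 and 28.4 CPM in the sets of E10.5 and at 113, 36.5 and 137 in those of E12.5. The later sets held 13 to 36.9 CPM at E16.5 and 11.2 to 21.6 at E17.5, so that the groups overlapped slightly (log2 difference 1.88 ± 0.40, adjusted p = 0.00435). Leukocyte-marker cells carried 69.97% of the Rgs2 counts at E10.5 and 86.9% at E12.5. Without the cells of other types the difference turned to -0.58 and did not pass (adjusted p = 0.478). Rgs16 was lower in the early cells by a log2 difference of -2.96 ± 1.05 that missed the threshold (adjusted p = 0.0591), with 2.45 to 12.51 CPM in the 3 sets of E10.5 and 0 to 1.38 in those of E12.5, against 6.37 to 21.7 at E16.5 and 5.78 to 44.2 at E17.5. The sets of E10.5 overlapped the later ones. DESeq2 and limma called it (adjusted p = 0.00526 and 0.00809). Rgs17 differed by 0.08 ± 0.27 on the log2 scale (adjusted p = 0.884).

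Endocrine and duct-lineage cells were set side by side at E16.5 and E17.5, where Ngn3-GFP+ sets (8) faced Sox9-CreER;Rosa-RFP+ sets (4). Rgs4 and Rgs17 were higher and Rgs2 lower in the Ngn3-GFP+ cells, and these 3 of 5 genes compare with 25% of all genes called. With the set number as a block, 1 of the 5 genes was called in place of 3. Rgs4 ranged from 20.4 to 122 CPM over the 8 Ngn3-GFP+ sets, and was at 0 in 3 of the 4 Sox9-CreER sets and at 4.56 in the other. That remaining signal sat almost wholly in 1 cell with mesenchyme markers, which carried 96.9% of the Rgs4 counts of its group (log2 difference 8.97 ± 1.79, adjusted p = 0.00233). Rgs17 was at 33.4 to 112 CPM in the Ngn3-GFP+ sets and at 5.91, 9.24, 17.8 and 24.6 in the Sox9-CreER sets, without overlap (2.25 ± 0.34, adjusted p = 0.000259). Rgs2 reached 85.1 and 245 CPM in the Sox9-CreER sets of E17.5 but 10.8 and 46.5 in those of E16.5, which overlap the 11.2 to 36.9 of the Ngn3-GFP+ sets (-2.03 ± 0.43, adjusted p = 0.00296). Rgs16 missed the threshold (2.77 ± 1.25, adjusted p = 0.118) and was called by DESeq2 and limma (adjusted p = 0.0194 and 0.00466). The Rgs2 call was lost without the second Sox9-CreER set of E16.5 (-1.21, adjusted p = 0.0786). In the Sox9-CreER cells of E17.5, where 6 of 8 leukocyte markers were at 0, 58.8% of cells carried Rgs2 at 100 CPM or more.

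Beta and alpha reporter cells of E15.5 differed most in Rgs4 and Rgs16, in opposite directions, though with 2 sets a side neither passed. Rgs4 was at 0.321 and 0.0808 CPM in Ins1-RFP+ sets and at 206 and 150 in Gcg-GFP+ sets (log2 difference -10.00 ± 2.28, adjusted p = 0.107). Rgs16 was at 35.3 and 32.1 CPM in Ins1-RFP+ sets and had no count in either Gcg-GFP+ set. By the same floor, which covers counting error only, it was at least 510-fold higher in these Ins1-RFP+ cells (adjusted p = 0.154). The single Gcg-GFP+ set of E17.5 held 19.9 CPM of Rgs16. Rgs2 was at 10.2 and 9.81 CPM in Ins1-RFP+ and at 17.7 and 15.96 in Gcg-GFP+ sets. None of the 5 genes was called by edgeR, against 0.693% of 17595 genes (122 genes, or 13.3% at an unadjusted p under 0.05, where 3 of the 5 fell). Rgs4 was called by DESeq2 (adjusted p = 7.38e-05) and by limma (adjusted p = 0.0406). Rgs5 counts in Gcg-GFP+ cells of E15.5 came from 1 cell only. In the Gcg-GFP+ set of E17.5, 2 of 11 cells held Rgs5, at 19.9 CPM over the set.

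The sorts mix cell states, so cells were also grouped by rules that use no Rgs gene, and classes were compared within sets that held at least 5 cells of both. Hormone classes had at least 5000 CPM of Gcg (Gcg-high, 368 cells) or of Ins1 and Ins2 together (Ins-high, 173 cells). The remaining cells were Neurog3-positive (338 cells, Neurog3 at 100 CPM or more), Fev-positive (110 cells, marking late endocrine precursors) or other epithelial cells (832). Each of the 5 genes had its own class profile. Rgs4 was largely a gene of Gcg-high cells, Rgs16 of Neurog3-positive and Ins-high cells, and Rgs2 of other epithelial cells. The median of Rgs16 was 20.1 CPM in Neurog3-positive sums and 21.3 in Ins-high sums, with means of 49.2 and 23.5. Rgs17 was found in every class, with a median of 34.7 CPM in other epithelial sums, 53.4 in Ins-high, 77.1 in Gcg-high, 117 in Neurog3-positive and 144 in Fev-positive sums. Rgs5 had a median of 3.15 CPM (0 to 96.1) in Gcg-high sums and of 0 in the sums of the other 4 classes.

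**Figure D2:**
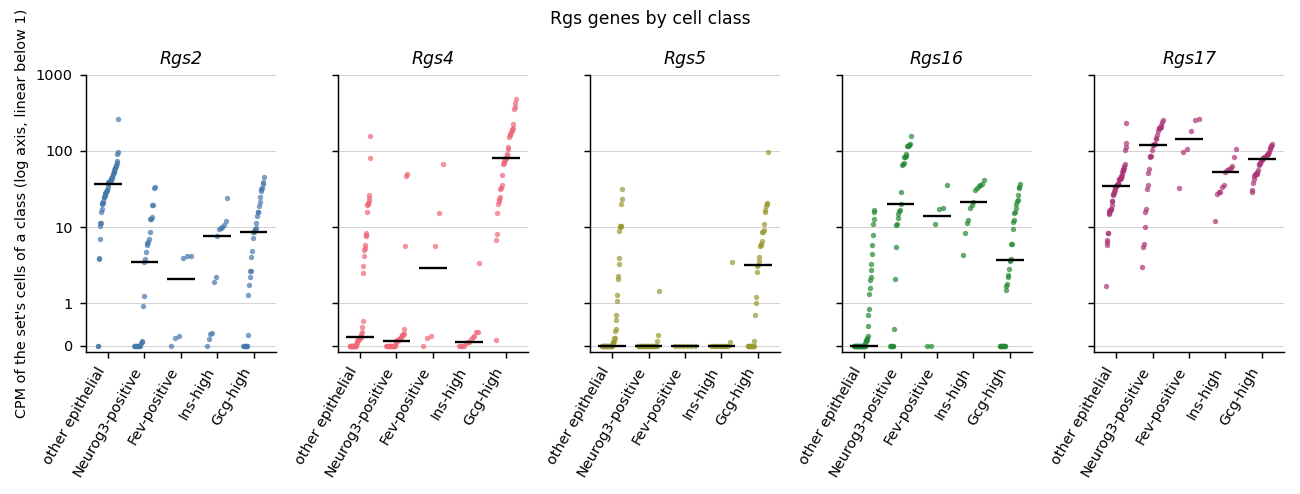
CPM of each Rgs gene (vertical axis, logarithmic above 1 and linear below) by cell class. Each point sums the cells of a class in a set with at least 5 of them, ordered by value, and bars are medians. The median of Rgs4 was 81.2 CPM in Gcg-high sums and 0.0882 in Ins-high sums. That of Rgs16 was 20.1 in Neurog3-positive, 21.3 in Ins-high and 0 in other epithelial sums.

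Rgs4 separated alpha-type from beta-type cells of the same set. In 8 sets that held both, its level was 66.1 to 429 CPM (median 163) in Gcg-high cells and 0 to 3.38 in Ins-high cells. It was lower in Ins-high cells in 8 of 8 sets, by -9.13 ± 0.80 on the log2 scale (adjusted p = 3.46e-05), and was the only call among the 4 of the 5 genes that passed the filter on low counts, against 7.51% of 11343 genes. Of 173 Ins-high cells, 0 carried Rgs4 at 100 CPM or more, which allows a share of up to 1.73% for counting error only, over cells pooled from several sets, against 100 of 368 Gcg-high cells. Gcg-high cells also exceeded Neurog3-positive cells of the same set in 10 of 10 sets. In those sets Rgs4 was at 15.4 to 474 CPM in Gcg-high cells, and at 0 to 0.277 in Neurog3-positive cells of 9 sets and 49.6 in the remaining set. The log2 difference was 9.47 ± 1.18 (adjusted p = 0.000417), the only call among 4 tested, against 8.82% of 10827 genes. Both Rgs4 calls held under every alternative run for these 2 contrasts.

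Rgs16 was carried at 100 CPM or more by 56 of 338 Neurog3-positive, 16 of 173 Ins-high and 3 of 832 other epithelial cells. Across 21 sets it was higher in Neurog3-positive than in other epithelial cells in 16, with a range of 0 to 115 CPM against 0 to 16.49 (log2 difference 4.25 ± 1.05, adjusted p = 0.00698). The groups overlapped at the low end, since some Neurog3-positive sums held no Rgs16. In the same contrast Rgs2 was lower in 19 of 21 sets, at 0 to 33.2 CPM in Neurog3-positive and 0 to 96.2 in other epithelial cells (-2.96 ± 0.79, adjusted p = 0.0105). Of the 5 genes 3 passed the filter on low counts here and 2 of them were called, against 18.8% of 12245 genes. Rgs17 missed the threshold (0.68 ± 0.31, adjusted p = 0.129) and passed by DESeq2 (adjusted p = 0.0391) or with Neurog3 counted from 50 CPM (0.93, adjusted p = 0.0334).

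Rgs16 was also compared between Neurog3-positive and later endocrine classes. In 5 sets with both classes it was at 118, 157, 123, 114 and 82.2 CPM in Neurog3-positive cells and at 17.2, 10.9, 0, 0 and 35.8 in Fev-positive cells of the same sets. The groups did not overlap, but edgeR did not call the difference (-4.43 ± 1.33, adjusted p = 0.102). Only Rgs16 and Rgs17 passed the filter here. edgeR called neither, against 5.7% of 12113 genes, though both had an unadjusted p under 0.05, as did 2568 genes in all. DESeq2 and limma each called Rgs16 (adjusted p = 0.0132 and 0.0092). In Ins-high cells of 6 sets Rgs16 was at 8.42 to 41.3 CPM against 29.1 to 123 in Neurog3-positive cells, lower in 6 of 6 (-1.92 ± 0.48, adjusted p = 0.0416). Rgs17 was at 12.1 to 107 CPM against 51.6 to 252, also lower in 6 of 6 (-1.52 ± 0.26, adjusted p = 0.0079). These were the 2 genes of the 5 that passed the filter, and 9.93% of 11374 genes were called. The Rgs16 call was lost in 5 of the 6 fits that left out a set, with adjusted p of 0.0616 to 0.135, whereas the Rgs17 call held in all 6. In Gcg-high cells of 10 sets Rgs16 was at 0 to 37.1 CPM against 0 to 114 in Neurog3-positive cells, lower in 5 and higher in 3, and it was not called (-2.67 ± 1.89, adjusted p = 0.445).

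**Figure D3:**
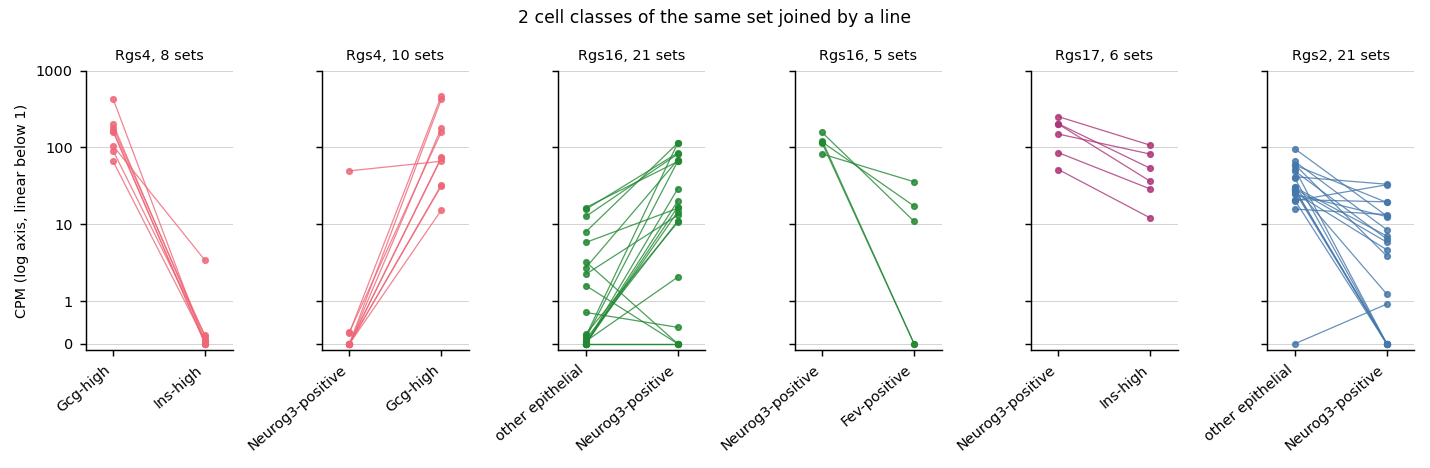
CPM of an Rgs gene (vertical axis, logarithmic above 1 and linear below) in 2 cell classes (horizontal axis) of the same set, with a line for each set. Rgs4 lines fall from Gcg-high to Ins-high cells in 8 of 8 sets, and Rgs16 lines rise from other epithelial to Neurog3-positive cells in 16 of 21.

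Over development, Rgs4 in Gcg-high cells was 176 CPM at E9.5 (15 cells), 22 at E10.5, 46.1 at E11.5, 53.1 at E12.5, 80.3 at E13.5, 152 at E14.5, 191 at E15.5, 208 at E16.5 and 173 at E17.5, in sums over all cells of a day. The level was lowest at E10.5 and highest at E16.5. In Ins-high cells of E14.5 to E17.5 it stayed between 0.0236 and 1.75 CPM. Rgs16 in Neurog3-positive cells was 4.40 CPM at E12.5 (11 cells), 73.0 at E13.5 and 84.3 at E14.5, then 45.1 at E15.5, 61.5 at E16.5 and 57.1 at E17.5. Earlier values were 11.1 CPM at E9.5, 33.1 at E10.5 and 28.5 at E11.5. Rgs2 in other epithelial cells was 12.7 CPM at E15.5 and 140 at E17.5, a day on which those cells came mostly from the Sox9-CreER and Ngn3-GFP+ sorts. Sorts differ between days, so these levels are a description with no test.

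**Figure D4:**
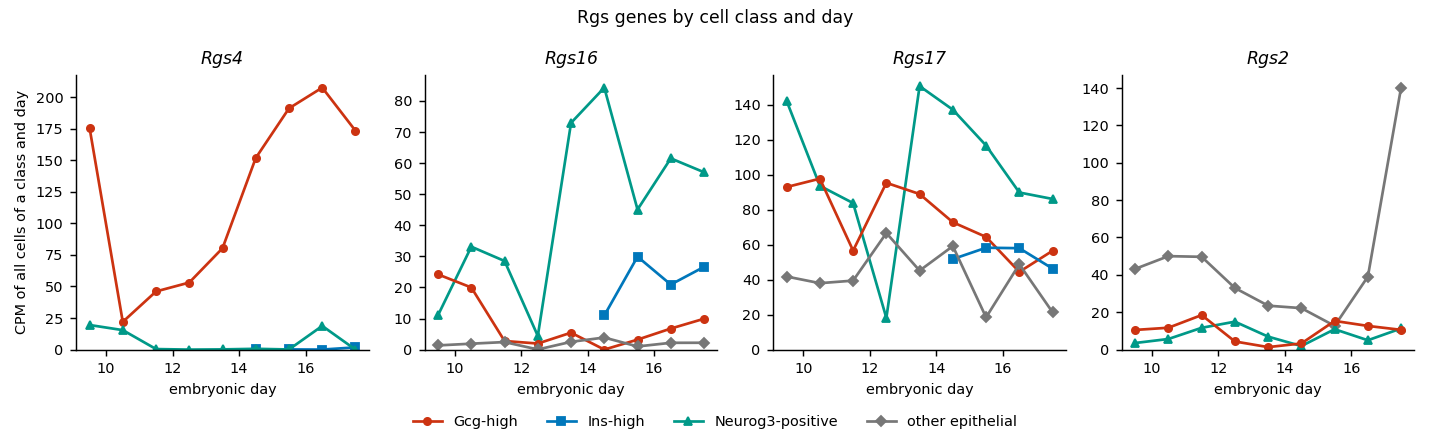
CPM of 4 Rgs genes (vertical axis, linear) in the summed cells of a class by embryonic day (horizontal axis), with colours and symbols for classes. Rgs4 in Gcg-high cells was 22 CPM at E10.5 and 208 at E16.5, and Rgs16 in Neurog3-positive cells was highest at E14.5 with 84.3.

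In the Pdx1-Cre lineage, sampled daily over E10.5 to E15.5, a slope per day was fitted over 19 sets. None of the 5 genes was called by edgeR, against 5.34% of 18710 genes (999 genes, or 17.3% at an unadjusted p under 0.05, where 3 of the 5 fell). Rgs2 came closest, with a slope of -0.37 ± 0.12 log2 units per day (adjusted p = 0.083), and passed by DESeq2 (adjusted p = 0.012) and limma (adjusted p = 0.047). It was at 38.6 and 23.5 CPM in the sets of E10.5 and at 7.89, 6.78 and 10.8 in those of E15.5, without overlap between these days. Rgs5 had a slope of 0.84 ± 0.32 (adjusted p = 0.153), which was 0.05 without the cells of other types. A single set of E15.5 held 71 CPM of Rgs5 and the others 0.144 and 3.22, and 4 cells with mesenchyme markers carried 95.8% of the Rgs5 counts of that day. Rgs16 reached 65.7 CPM in 1 set of E15.5 beside 1.62 and 2.37 in the others, and 1 cell with neural and glial markers carried 82.6% of these counts.

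Blocking MEK in explants tested whether the genes of Ins1-RFP+ cells depend on the ERK pathway. Rgs2 was at 11.2, 15, 21.1 and 16 CPM in the 4 control sets and at 7.46, 6.73, 2.57 and 7.12 in the 4 U0126 sets. Rgs17 was at 38.3, 51.7, 31.9 and 30.9 CPM in control sets and at 14.1, 17.2, 29.95 and 11.2 in U0126 sets. For both genes every control set lay above every U0126 set, a separation that 2.61% of the 12632 genes tested showed in either direction. Neither passed the test across all genes: the log2 differences were -1.40 ± 0.52 for Rgs2 and -1.05 ± 0.35 for Rgs17, with an adjusted p of 1 for each. edgeR called 0 genes of all tested (0%), 436 had an unadjusted p under 0.05, including Rgs2 and Rgs17, limma also called 0, and DESeq2 called 10, none of them an Rgs gene of the 5. Rgs16 was at 0 to 6.99 CPM in control and 6.27 to 17.1 in U0126 sets (1.21 ± 0.98, adjusted p = 1). Rgs4 and Rgs5 did not pass the filter on low counts, with at most 0.449 CPM in any explant set. The 8 tested genes of ERK feedback (Dusp, Spry, Spred and Etv genes, among others) had a median log2 difference of -0.82, against 0.00 for all genes, and 0 of them were called.

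Rgs5 counts in the sorted cells came mainly from few cells. In Ngn3-Cre;Rosa-RFP+ cells of E11.5, 6 cells with mesenchyme markers held 98.4% of all Rgs5 counts, and the 2 sets held 0 and 135 CPM. In the Sox9-CreER cells of E16.5 a single cell with mesenchyme markers held 96.8%, and the sets held 33.6 and 0 CPM. Over 338 Neurog3-positive, 173 Ins-high and 110 Fev-positive cells, 0 carried Rgs5 at 100 CPM or more (which allows shares of up to 0.888%, 1.73% and 2.73% for counting error only, over pooled cells), against 5 of 368 Gcg-high cells. No comparison called Rgs5 in the tests as set out above.

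The 2 droplet libraries, which were not sorted, placed the genes in cell types beyond the epithelium. Library 1 kept 3400 cells (median 9237 UMI) and library 2 kept 6596 (median 4908), each clustered alone without the 5 genes, and clusters were named from marker lists. Only 37 barcodes were shared. Values are CPM of UMI counts with exact 95% Poisson intervals over the summed cells, which cover counting error only, and a library is a single sample, so no test was made.

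Rgs16 was highest among named classes in endocrine progenitor-like cells of both libraries (leading genes include Neurog3, Pax4 and Btg2), at 82.8 (63.2 to 107) in library 1 and 45.4 (33.5 to 60.2) in library 2. With coarser clusters (resolution 0.5) the values were 27.8 and 22. In trunk and duct-like cells it was 0 in library 1, where 3 UMI would be 0.560 CPM, and 0.268 in library 2. It was also present in endothelium-like cells of library 2 at 21.1 (15.3 to 28.3), of which a cluster of 15 cells led by Ccl21a, Lyve1 and Flt4 held 58.7 (26.8 to 111). Endothelium-like cells of library 1 held only 2.18 (0.450 to 6.37), from 3 UMI. Neural and glial-like cells of library 2 held 35.7 (17.1 to 65.7). Leukocyte-like cells had 0 Rgs16 UMI in both libraries, where 3 UMI would be 2.78 and 2.40 CPM.

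Rgs17 was spread over all endocrine classes, with 202 (170 to 237) in endocrine progenitor-like cells of library 1 (107 with coarser clusters) and 229 (201 to 260) in those of library 2. Alpha-like cells of library 2 held 282 (255 to 311) and beta-like cells 165 (145 to 187). Leading genes of the alpha-like cluster include Gcg, Ghrl, Pyy and Sst, so its levels may not be those of alpha cells alone. Acinar-like cells held 43.1 and 25.8 in the 2 libraries. Endothelium-like and leukocyte-like cells held at most 1.60 in either library.

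Rgs4 was at 65.2 (52.6 to 80.0) in alpha-like cells of library 2, at 8.90 (4.74 to 15.2) in beta-like cells and at 0.946 in endocrine progenitor-like cells, where 1 UMI was seen. That alpha-like cluster is the one whose leading genes also include Ghrl and Sst. No cluster of library 1 could be named alpha or beta, and its cluster led by Gcg, Pyy and Ins2 held 39.3 (30.7 to 49.6). Outside the epithelium Rgs4 was found in mesenchyme-like cells (25.2 and 31.6) and in unnamed clusters led by the neuronal genes Tubb3, Stmn2 and Elavl4 (51.1 and 84.7). Rgs5 was a gene of the supporting tissue. It reached 159 (152 to 166) and 214 (204 to 225) in mesenchyme-like cells, 370 (308 to 441) in pericyte and smooth muscle-like cells and 522 (482 to 565) in an unnamed cluster of library 2 led by Ndufa4l2 and Cox4i2. Epithelial and endocrine classes held 1.89 to 11.0. Rgs2 was highest in leukocyte-like cells (297 and 161) and endothelium-like cells (156 and 164), with 4.14 and 4.73 in endocrine progenitor-like cells and 16.6 and 18.5 in trunk and duct-like cells.

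**Figure D5:**
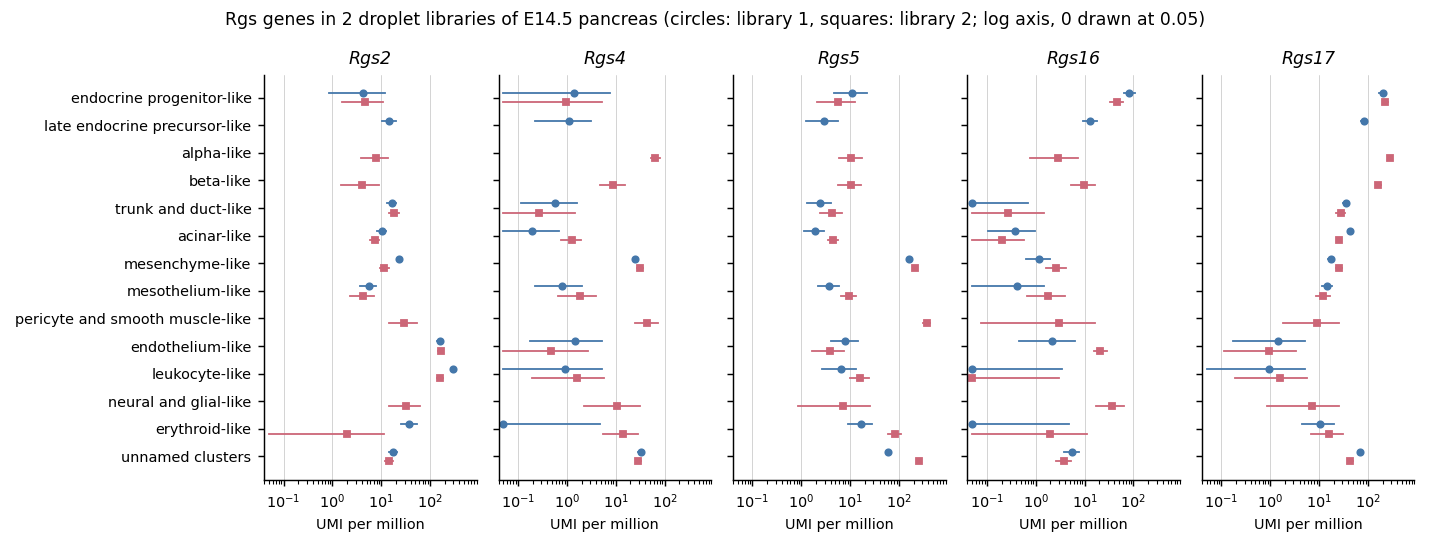
CPM of UMI counts of each Rgs gene (horizontal axis, logarithmic, with 0 drawn at 0.05) in the cell classes of 2 droplet libraries (vertical axis). Circles are library 1, squares are library 2 and bars are exact 95% Poisson intervals. Among named classes, Rgs16 was highest in endocrine progenitor-like cells (82.8 and 45.4), and Rgs5 in mesenchyme-like and pericyte and smooth muscle-like cells. For Rgs16 in library 2, the interval overlapped that of neural and glial-like cells (35.7).

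The rest of the signalling chain was counted from fixed lists. Among G protein coupled receptors, the class contrasts called 5 higher and 2 lower of 12 tested in Neurog3-positive against other epithelial cells, where 18.8% of all genes were called. F2r, a thrombin receptor, was higher by 1.40 ± 0.25 on the log2 scale (adjusted p = 0.000307) and Gipr, the receptor of the incretin GIP, by 2.23 ± 0.54 (adjusted p = 0.00584), whereas the cholecystokinin receptor gene Cckar was lower (-4.12 ± 0.86, adjusted p = 0.00211). In Ins-high against Gcg-high cells 3 of 15 receptors were higher and 1 lower, where 7.51% of all genes were called. Adra2a, the Gi-coupled alpha-2A adrenergic receptor, was higher in Ins-high cells by 8.19 ± 1.19 (adjusted p = 0.00115), as were Glp1r (7.05 ± 1.07, adjusted p = 0.00144) and Gcgr (5.60 ± 1.40, adjusted p = 0.0303). The somatostatin receptor gene Sstr2 was higher in Gcg-high cells (-5.47 ± 1.33, adjusted p = 0.0269). In Ngn3-GFP+ against Sox9-CreER cells 10 of 26 receptors were higher and 0 lower, where 25% of all genes were called, with a median of 2.56 over the list against 0.17 over all genes.

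The G protein subunit genes were counted likewise. Gnas, which encodes the stimulatory alpha subunit, was higher in Ngn3-GFP+ than in Sox9-CreER cells by 4.29 ± 0.35 (adjusted p = 1.26e-06), as was Gnao1 by 5.04 ± 0.64 (adjusted p = 5.89e-05), among 5 of 13 alpha subunit genes that were higher and 0 that were lower (25% of all genes). Of 14 beta and gamma subunit genes 6 were higher and 2 lower there. Ins-high against Gcg-high cells called 1 of 11 alpha and 3 of 8 beta and gamma subunit genes, against 7.51% of all genes. Neurog3-positive against other epithelial cells called 0 of 11 and 2 of 12, against 18.8% of all genes. Gng12, a gamma subunit gene, was higher in Ins-high than in Gcg-high cells by 3.75 ± 0.29 (adjusted p = 1.37e-05), while Gng11 was lower (-5.39 ± 1.297, adjusted p = 0.0289).

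Of the 16 other Rgs genes, 14 were tested in the Ngn3-GFP sorts, and those called in Ngn3-GFPhigh against Ngn3-GFPlow cells were lower, with 2 at E13.5, 4 at E14.5 and 4 at E15.5, apart from 1 that was higher at E14.5. The shares over all genes on these days were 6.22%, 15% and 8.98%. Rgs10 and Rgs19 were lower on all 3 days (Rgs19 by -1.50 ± 0.38, -2.16 ± 0.36 and -2.74 ± 0.48, adjusted p = 0.0284, 0.00162 and 0.00469), in the same sorts that held the leukocyte-marker cells described above. Their part in these calls was not tested. Rgs11 was higher in Ins-high than in Gcg-high cells (2.07 ± 0.37, adjusted p = 0.00439). It was the only call among 7 other Rgs genes tested there, against 7.51% of all genes. Rgs9 and Rgs11 were higher in Ins-high than in Neurog3-positive cells (5.14 ± 1.05 and 4.15 ± 1.07, adjusted p = 0.0181 and 0.0443). These were 2 of 7 tested, against 9.93% of all genes.

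Over the 29 groups, the genes whose mean log2 level was most like that of Rgs4 included Fam46d (Pearson r = 0.88), Gcg (0.86), Nxph1 (0.86) and Pde1a (0.84). For Rgs17 they included Stox1 (0.87), Phip (0.86), Ift22 (0.86) and Pou3f4 (0.85). Rgs16 was most like Dmpk (0.77), Miat (0.77), Rbfox3 (0.75), Slit1 (0.75) and Zbtb11 (0.73). For Rgs2 they were Specc1 (0.84), M6pr (0.83), Pdxk (0.82), Zfp36l2 (0.80) and Gpx1 (0.80), and for Rgs5 Rab6b (0.74), Itm2a (0.74), Hs6st2 (0.71), Serinc5 (0.70) and Islr (0.69). Among the 5 genes, Rgs2 and Rgs16 were most opposed (r = -0.76). These correlations describe 29 groups that share strains and days, and the leukocyte-marker cells contribute to the Rgs2 levels.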

How the data were processed

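Smart-seq2 cells were sorted from mouse embryonic pancreas. The authors deposited read counts per gene, made with TopHat2 2.1.0, Bowtie2 and HTSeq 0.6.0 against mm10, per the submitters' processing notes, and UMI counts of 2 droplet libraries from Cell Ranger 2.0.2. The 92 spike-in (ERCC) rows were left out, and CPM was computed from the remaining counts. Counts were summed per set and tested with edgeR 4.0.16 (R 4.3.3; quasi-likelihood F test, TMM, filterByExpr, Benjamini-Hochberg adjustment over all genes, threshold 0.05). The SE is the log2 fold change divided by the square root of F. DESeq2 1.42.0 and limma 3.58.1 (log2 of mean CPM per cell + 1) were alternatives. No 2 cells held identical counts. The single Gcg-GFP+ set of E17.5 entered no test.

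Cell classes followed in order: markers of another type (4 or more at 100 CPM of a list of leukocyte, endothelium, mesenchyme, pericyte and smooth muscle, mesothelium, neural and glial, erythroid or liver genes), hormone classes, Neurog3-positive, Fev-positive, and other epithelial (Epcam or Cdh1 at 10 CPM). Class contrasts were fitted each on the sets that held both classes, with the set as a block, which is narrower than a fit over all classes. Droplet cells needed 1000 genes or more and no more than 10% mitochondrial UMI. Scrublet in scanpy 1.11.5 marked 6 of 3406 and 168 of 6764 of these as doublets, which were removed. Few doublets were found in library 1, so some may remain, for example in its late endocrine precursor-like cluster of 100 cells. Clusters (resolution 1.0) were named at a marker score of 0.4 or more with at least 3 markers detected. UMI and read counts limit precision, and intervals cover counting error only.

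All 5 genes are described in every group. Of each list, the called genes are named, up to 4 with the smallest p in a comparison, and the 5 genes most like each member were taken among those whose mean reached 10 CPM in some group; some of these are not reported here. The genes and lists were chosen with earlier results of these data known. Scripts were tested on simulated data. Alternatives covered scaling, tool, filter, cells of other types, thresholds and leaving out sets.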

Additional observations from a re-analysis of the deposited data

Results flagged for a closer look

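Within groups of 4 or 5 sets, 8 of the 40 combinations of gene and group held a set far from the others, where chance flags about 1 in 20 groups.

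Rgs17 in Ngn3-GFP+ cells of E16.5 was 112 CPM in the first set (37 cells) and 42.4 to 49.7 in the other 3. In Ngn3-GFPlow cells of E14.5 the first set (31 cells) held 37.4 CPM of Rgs17 and the other 4 held 12.4 to 13.7. Rgs4 in Ngn3-GFP+ cells of E17.5 was 122 CPM in the third set (22 cells) and 37.0 to 47.4 in the others. Rgs2 in U0126-treated explant cells was 2.57 CPM in the third set (20 cells) and 6.73 to 7.46 in the others.

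The remaining flags fell on Rgs5, where most sets were at or near 0. It was 0.136 CPM in 1 U0126 set and 0.139 in 1 control set of the explants with all others at 0. It was 5.47 CPM in the fifth Ngn3-GFPlow set of E14.5, beside 0 to 0.285, and 27.5 CPM in the third Pdx1-Cre set of E13.5, beside 2.21 to 5.04.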

How the results depend on the processing

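Counts here are of the 5 Rgs genes called. Ngn3-GFPhigh against Ngn3-GFPlow cells at E13.5 gave 2, but 4 by DESeq2, 0 without cells with markers of another type, and 1 to 2 when single sets were left out. DESeq2 gave 2 against 0 for the change of that difference with day, and 1 against 0 for Ngn3-GFPhigh cells of E15.5 against E13.5. Early against late Ngn3-GFP+ cells gave 1, but 2 by DESeq2, 3 by limma, 2 with only the groups compared, 0 without cells of other types, where Rgs2 turned to -0.58, and 1 to 2 with sets left out. Ins1-RFP+ against Gcg-GFP+ cells gave 0, but 1 by DESeq2, by limma or with no filter, and 2 with only the groups compared. The Pdx1-Cre slope gave 0, but 1 by DESeq2 or limma, and 0 to 1 with sets left out (Rgs2 without the second set of E10.5, or the first or second of E14.5). Neurog3-positive against other epithelial cells gave 2, but 4 with no filter. Fev-positive against Neurog3-positive cells gave 0, but 1 by DESeq2, limma or a hormone threshold of 10000 CPM. Ins-high against Neurog3-positive cells gave 2, but 1 with no filter, a Neurog3 and Fev threshold of 50 CPM or a hormone threshold of 10000 CPM, and 1 to 2 with sets left out. Gcg-high against Neurog3-positive cells gave 1, but 2 with no filter, and Ins-high against Gcg-high cells gave 1, but 2 by DESeq2. Same-numbered sets of 2 groups correlated at -0.0464 to 0.138 in their deviations from the group means. Set numbers were not taken to pair samples. Every explant pair (0.0388 to 0.138) and every pair of E13.5 (0.0796 to 0.136) was positive, so the unpaired fits may miss a pairing there. With the replicate block the Ngn3-GFP+ against Sox9-CreER count was 1 in place of 3, and that of E13.5 was 3 in place of 2. Class contrasts without the replicate block gave 0 for Ins-high and 2 for Gcg-high against Neurog3-positive cells, 2 for Ins-high against Gcg-high cells, and 0.47 for Rgs17 in Fev-positive cells in place of -0.90. Over all genes, DESeq2 called 2593 at E13.5 against 1181 by edgeR, 706 against 23 for the change with day, and 1143 against 122 for Ins1-RFP+ against Gcg-GFP+ cells. Among droplet values in CPM of UMI counts, coarser clusters (resolution 0.5) moved Rgs2 in leukocyte-like cells of library 1 to 265, Rgs4 and Rgs5 in its mesenchyme-like cells to 17.3 and 122, Rgs5 in pericyte and smooth muscle-like cells to 499, Rgs16 in endocrine progenitor-like cells to 27.8 and 22, and Rgs17 there to 107 in library 1. A minimum of 2000 genes gave 81 for Rgs4 and 226 for Rgs17 in alpha-like cells and 141 for Rgs5 in mesenchyme-like cells of library 1. The causes were not tested. Low counts limit Rgs5 and, outside Gcg-high cells, Rgs4.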

Other observations

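Pairs of the 5 genes were also counted in single cells. With a cell counted as a carrier from 100 CPM, the 2077 fresh cells held 257 carriers of Rgs2, 151 of Rgs4, 25 of Rgs5, 90 of Rgs16 and 435 of Rgs17. No cell carried both Rgs2 and Rgs16, but their carriers lay mostly in different classes. Of the Rgs2 carriers, 119 had markers of another type and 108 were other epithelial cells, classes with 2 and 3 Rgs16 carriers. Neurog3-positive cells held 56 Rgs16 carriers and 1 Rgs2 carrier. Whether the genes avoid each other within a class was not tested. Rgs16 and Rgs17 shared 26 cells, which is 28.9% of the Rgs16 carriers and 5.98% of the Rgs17 carriers. Rgs4 and Rgs17 shared 45 cells, 29.8% of the Rgs4 and 10.3% of the Rgs17 carriers. The genomic neighbours Rgs4 and Rgs5 shared 10 cells, 6.62% of the Rgs4 carriers and 10 of the 25 Rgs5 carriers. Over all classes together, 151 of the 2077 cells were Rgs4 carriers. Within Gcg-high cells, 4 of the 5 Rgs5 carriers were also Rgs4 carriers, as were 100 of all 368 cells. There 28% of the 100 Rgs4 carriers were Rgs17 carriers, as were 30.4% of all Gcg-high cells. Within Neurog3-positive cells, 35.7% of the 56 Rgs16 carriers were Rgs17 carriers, as were 37.9% of all cells of that class.

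Small hormone classes that entered no test showed Rgs17 and Rgs4 as well. Of 22 Ghrl-high cells, whose hormone marks epsilon cells, 17 carried Rgs17 and 4 carried Rgs4. In the 7 Ghrl-high cells of E14.5 Rgs4 was at 127 CPM, and in the 11 Sst-high cells of E17.5 it was at 29.1 CPM. The 36 Gcg-high cells of the latter day held 173 CPM.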
